A study of Homo sapiens with 6 samples.

Results

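The genes described here build, trim or carry the sugar chains of glycoproteins, glycolipids, proteoglycans and GPI anchors. They were taken as the protein-coding genes of the expression table whose symbols name glycosyltransferases, mucins or enzymes of glycan processing (GALNT, B3GNT, FUT, MGAT, ALG, PIG, CHST, MUC and similar stems). This gave 48 genes of the 5681 listed, of which 4129 are protein coding. PIGR was matched by its letters only: it encodes the polymeric immunoglobulin receptor, which is not an enzyme of GPI anchor synthesis, and it is kept apart.

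N-glycans are assembled on the lipid dolichol in the endoplasmic reticulum, moved as a block to asparagine and then trimmed and branched on the way through the Golgi. Mucin-type O-glycans start with GalNAc on serine or threonine, and O-mannose chains and glycosaminoglycans start with other sugars. The ends of N-glycans and mucin-type O-glycans are finished with galactose, GlcNAc, fucose, sialic acid or sulfate. In the colon, surface and secreted mucins form the mucus layer, and fucosylated and sialylated ends make up the Lewis antigens carried by epithelial cells and by their tumors.

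HT-29, an established line of human colorectal cancer cells that grows attached to the dish, was profiled by RNA-seq. The control group, Scramble, had 3 libraries of cells given a control hairpin, and their genotype is labelled WT. The shOGT group had 3 libraries of cells with OGT knocked down by a short hairpin RNA. OGT encodes the O-GlcNAc transferase, which puts a single GlcNAc on nuclear and cytoplasmic proteins and so acts apart from the pathways above. Libraries 1 to 3 are Scramble and libraries 4 to 6 are shOGT. The study's methods list more than 1 hairpin against OGT without saying which was sequenced, all libraries come from a single cell line, and untransduced cells were not analysed here. The labels do not say that the libraries came from separate cultures, so the p-values measure the spread between libraries, which may be technical.

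OGT stood at 9628, 11638 and 11619 normalized counts in libraries 1, 2 and 3 and at 484, 621 and 537 in libraries 4, 5 and 6. The knocked-down libraries kept 4.99% of the control mean, in the direction of their labels (log2 fold change -4.32 ± 0.11; exact two-sided permutation p = 0.10, the smallest that 3 against 3 allows). The listed genes held 4145921 to 4504303 reads per Scramble library and 3302558 to 3471647 per shOGT library. Of 12 markers of colon epithelium, 5 are in the table, all with reads in every library: KRT19 (1.39 ± 0.11), KRT20 (2.69 ± 0.09) and CDH17 (1.34 ± 0.36) were higher in shOGT and VIL1 (-1.12 ± 0.10) and LGALS4 (-1.97 ± 0.09) lower, as log2 fold changes. Of 11 absorptive cell markers CA2 is listed (1.12 ± 0.31). Of the markers of other cell types, the table lists PDGFRB of 7 fibroblast markers (0, 1.80 and 0 normalized counts against 10.5, 17.1 and 13.7) and PECAM1 of 3 endothelial markers (42.3 to 51.4 against 129 to 200). It also lists LYZ of 5 leukocyte markers (7918 to 8617 against 15653 to 17397) and none of 5 enteroendocrine markers. A marker outside the table may be expressed and unchanged, so these counts do not show which kinds of cell were present. The part of the listed markers in the results below was not tested.

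Values are normalized counts: reads per gene divided by a size factor of the library, without division by gene length. Changes are given as log2 fold changes of shOGT relative to Scramble on the log2(normalized count + 1) scale, with the standard error of the limma fit (± SE, 3 libraries per group) and p-values adjusted by Benjamini-Hochberg over 5671 genes tested. A call required both a log2 fold change beyond 1 in either direction and an adjusted p under 0.05. In these bulk libraries, a lower level from fewer cells of a kind and from less RNA per cell cannot be told apart.

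The authors listed only genes that had changed more than 2-fold at an adjusted p under 0.05, so every gene of the table had to differ, and the number called says nothing about glycan genes. All 48 passed the filter on low values, and 47 were called, against 99.4% of all genes tested. The values of the groups did not overlap for any of the 48, as for 99.5% of all genes. What can be read are directions and sizes. Of the 48 genes, 23 had higher and 25 had lower values in shOGT, that is 52.1% lower beside 57.4% of the protein-coding genes tested and 47.5% of all genes tested. By call, 22 were higher (52.2% of all genes tested) and 25 lower (47.2% of all genes tested). The median absolute log2 fold change was 1.68, beside 1.57 for protein-coding genes and 1.69 for all genes. In size and in balance the glycan genes lay close to the rest of the table. The groups by role, of 2 to 7 genes each apart from PIGR, ran from even splits to a single direction. Whether these small groups differ from the rest of the table was not tested.

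The scaling between libraries bears on these directions. Setting the library factors anew, by the median of ratios among the listed genes, moved the median over all genes tested from a log2 fold change of 1.05 to 1.76, a shift of 0.71. The method assumes that most genes are unchanged, but every listed gene was chosen for a change of more than 2-fold. It raises every shOGT value relative to Scramble, so falls shrink and rises grow by construction. A call lost after rescaling therefore does not show that a fall is less sure than a rise. No glycan gene changed sign, but only 9 stayed called lower (19.2% of all genes tested were), while 23 were called higher (52.5%), and 32 in all (71.8%). Among the 4127 protein-coding genes tested, 934 were called lower and 1760 higher after rescaling. The values below use the deposited scaling, and calls of glycan genes lost after rescaling are named with their group.

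**Figure D1:**
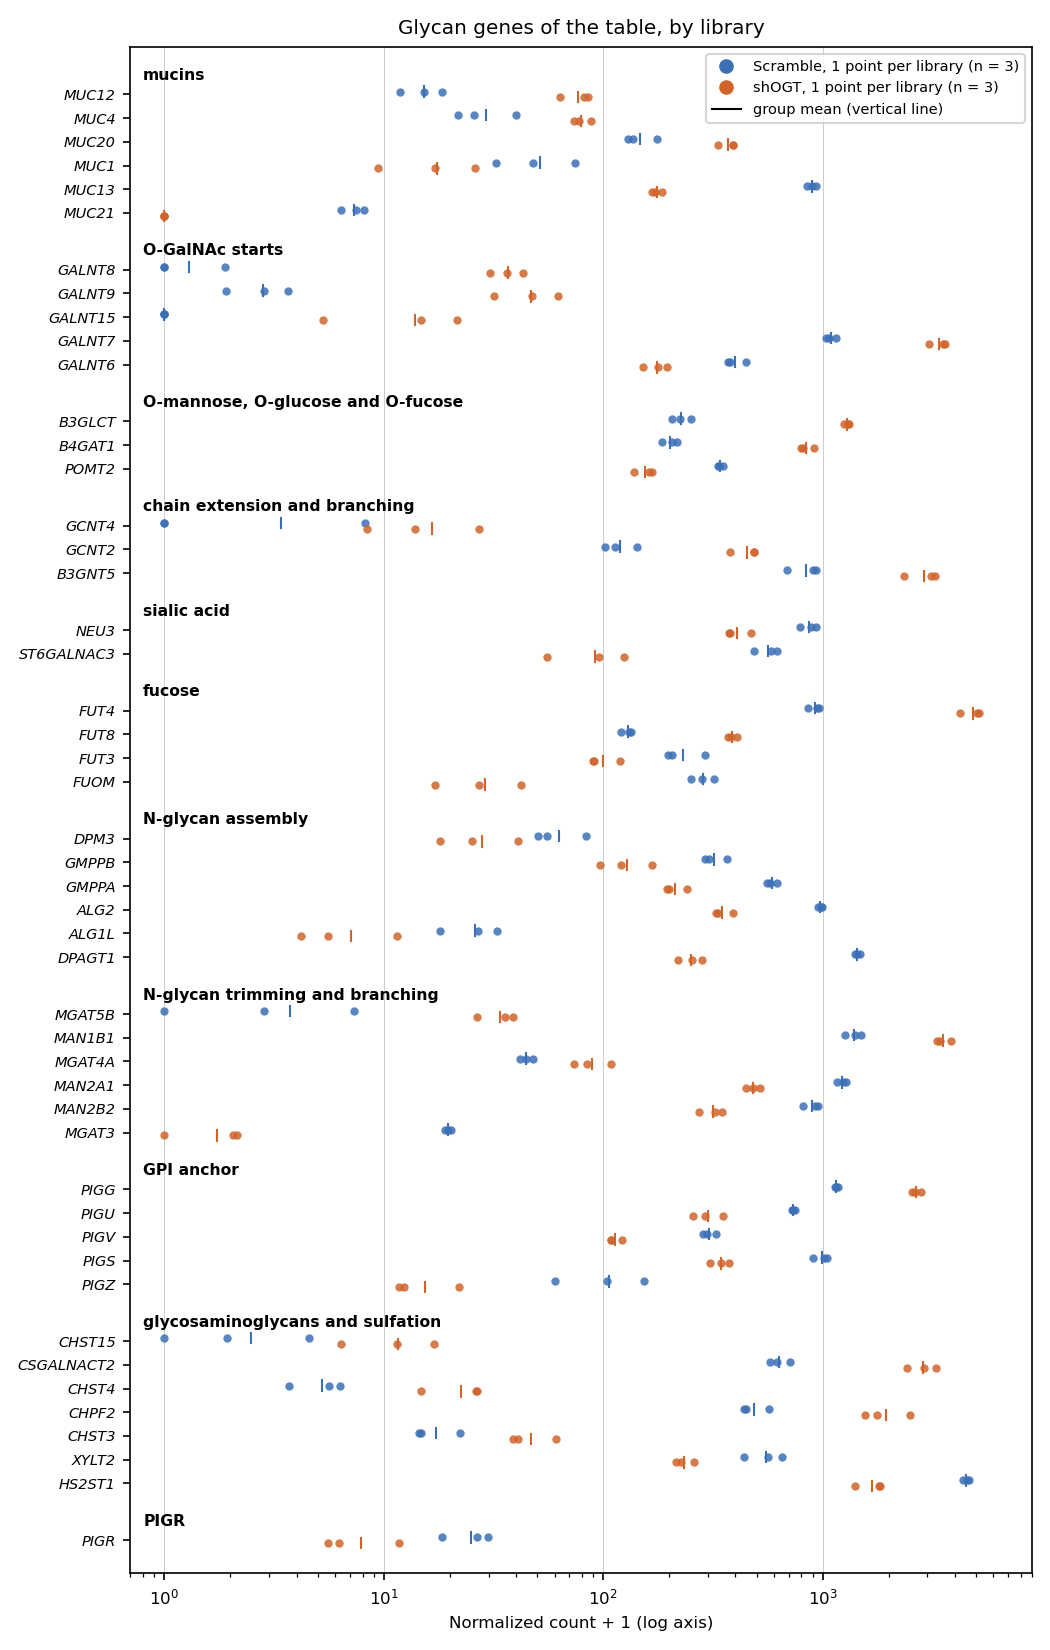
Normalized count + 1 (log axis) of each of the 48 glycan genes in the 3 Scramble libraries (blue) and the 3 shOGT libraries (orange), grouped by role, with a vertical line at each group mean. All 6 N-glycan assembly genes lie lower in shOGT and all 3 chain extension genes lie higher. The values of the groups do not overlap for any of the 48 genes, as for 99.5% of all genes tested.

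The clearest one-way group was N-glycan assembly, the steps that supply activated mannose and build the dolichol-linked precursor: 6 of its 6 listed genes fell, with a median log2 fold change of -1.48. The annotation holds 23 protein-coding genes of this role, and the other 17 are not among the genes of the table. DPAGT1, which adds the first GlcNAc-phosphate to dolichol and so opens the pathway, stood at 1426, 1403 and 1482 normalized counts in the Scramble libraries and at 253, 218 and 282 in the shOGT libraries. The shOGT libraries kept 17.5% of the Scramble mean (-2.52 ± 0.11, adjusted p = 1.19e-10). Exons of C2CD2L lie opposite 21.3% of its exon bases, and that gene is not in the table. ALG2, a mannosyltransferase that acts on the growing precursor, read 947, 986 and 989 in Scramble and 325, 332 and 388 in shOGT. It dropped to 35.8% of the control mean (-1.48 ± 0.10, adjusted p = 8.32e-09). A clear difference between the groups was a condition for being listed, for these genes as for all others.

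Both subunits of the enzyme that makes GDP-mannose fell. GMPPA, the regulatory subunit, went from 584 ± 30.6 to 211 ± 24.4 normalized counts (mean ± SD, n = 3; log2 fold change -1.47 ± 0.12). GMPPB, the catalytic subunit, went from 320 ± 41.3 to 127 ± 35.9 (log2 fold change -1.35 ± 0.19), but 42.3% of its exon bases lie on the same strand as exons of AMIGO3, so part of its reads may belong to that gene. DPM3, a small subunit of the dolichol-phosphate mannose synthase, went from 62.1 ± 17.8 to 27.1 ± 11.6 (-1.21 ± 0.34, adjusted p = 0.00332), and its fold fell short of the threshold without library 1 (-0.99) or library 5 (-0.94). ALG1L, a gene named for its likeness to the mannosyltransferase ALG1, had 31.9, 17.1 and 25.8 in Scramble and 10.5, 3.21 and 4.55 in shOGT (-1.96 ± 0.45). Its exons overlap those of FAM86JP on the opposite strand over 34.8% of their bases, and FAM86JP was lower as well (-1.04 ± 0.20). After rescaling all 6 kept negative log2 fold changes (median -0.76), and DPAGT1 (-1.80) and ALG1L (-1.31) remained called.

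The windows upstream of the GMPPA and DPAGT1 start sites are shown because both genes fell and only the first of them holds the E-box CACGTG, the palindromic motif known for binding by Myc and related factors, which the study follows as a target of OGT. They are the 250 bases before the RefSeq start (GRCh38.p14), written 5′ to 3′ along the gene, with the motif in capitals. For GMPPA the window is chr2:219498641-219498890 on the plus strand, and the motif starts at position -12, counting -1 as the base just before the start. For DPAGT1 it is chr11:119101854-119102103 on the minus strand, without the motif.
GMPPA: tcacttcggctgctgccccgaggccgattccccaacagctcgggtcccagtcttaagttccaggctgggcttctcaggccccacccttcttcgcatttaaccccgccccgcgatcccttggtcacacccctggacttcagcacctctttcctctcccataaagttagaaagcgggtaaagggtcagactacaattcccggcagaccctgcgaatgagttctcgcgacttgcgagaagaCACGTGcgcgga
DPAGT1: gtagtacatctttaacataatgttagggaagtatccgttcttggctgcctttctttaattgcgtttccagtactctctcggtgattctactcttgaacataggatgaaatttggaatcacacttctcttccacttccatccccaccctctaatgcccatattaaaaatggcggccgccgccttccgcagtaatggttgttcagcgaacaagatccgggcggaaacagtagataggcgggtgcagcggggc

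Later steps on N-glycans, trimming by mannosidases and branching by GlcNAc transferases, went both ways: 3 of the 6 listed genes had higher and 3 lower values (median log2 fold change -0.19), of 18 annotated. The mannosidases split. MAN1B1, which trims mannose in the endoplasmic reticulum, had 1497, 1401 and 1260 normalized counts in Scramble and 3859, 3431 and 3305 in shOGT, and so rose by 1.35 ± 0.09 on the log2 scale. MAN2A1, a Golgi mannosidase needed for complex chains, had 1159, 1276 and 1240 against 446, 515 and 478, a fall to 39.2% of the control mean (-1.35 ± 0.10). MAN2B2, a lysosomal mannosidase, had 950, 817 and 921 against 346, 322 and 272, or 35.0% of the control mean (-1.52 ± 0.12). The adjusted p of these 3 genes lay between 7.75e-09 and 2.05e-08. After rescaling the rise of MAN1B1 remained called, and the falls of MAN2A1 (-0.64) and MAN2B2 (-0.80) did not reach 2-fold.

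Among the branching enzymes, MGAT3 and MGAT5B were scarce in 1 of the groups. MGAT3, which adds the bisecting GlcNAc that stops further branching, had 21, 20 and 21 reads in Scramble and 1, 0 and 1 in shOGT. The Scramble level was 25.8 times that of shOGT, with a counting interval of 6.84 to 217 (95%, exact, for counting error only). MGAT5B, a relative of the branching enzyme MGAT5 known from O-mannose chains in brain, had 0, 7 and 2 reads in Scramble and 33, 24 and 33 in shOGT. The shOGT level was 12.0 times higher (6.06 to 27.2), and its fitted log2 fold change of 3.60 ± 0.59 ran from 2.87 without library 1 to 4.30 without library 2. MGAT4A, which starts another branch, had 43.5, 40.6 and 46.9 against 72.6, 108 and 83.1 normalized counts. Its log2 fold change of 0.98 ± 0.24 (adjusted p = 0.00126) just missed the 2-fold threshold, and it was the only glycan gene not called. After rescaling MGAT3 and MGAT5B remained called, and MGAT4A was called higher (1.68).

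The mucins, the carriers of dense O-glycans, also split evenly. All 6 that are listed are cell-surface mucins, and 3 rose and 3 fell (median log2 fold change -0.13, of 17 mucin genes annotated). The gel-forming mucins MUC2, MUC5AC, MUC5B and MUC6 are not among the genes of the table. MUC13, a surface mucin of the gut, was the most abundant of these mucins per length in Scramble, with 255 ± 12.1 normalized counts per 1000 exon bases. It read 850, 898 and 934 normalized counts in Scramble and 171, 184 and 166 in shOGT, and fell to 19.4% of the control mean (-2.36 ± 0.11, adjusted p = 1.89e-10). MUC1, the widely expressed epithelial surface mucin, had 73.6, 31.5 and 46.9 against 8.42, 16.1 and 25.0. Its Scramble libraries differed more among themselves than those of MUC13, and the lowest of them lay only slightly above the highest shOGT library (-1.60 ± 0.42, adjusted p = 0.00209). MUC21 had 8, 6 and 7 reads in Scramble and none in shOGT, at least 5.82-fold lower when 3 reads are set as the floor over the group.

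Of the mucins that rose, MUC12, another surface mucin of the colon, gained most, from 14.2, 10.8 and 17.5 normalized counts to 84.2, 80.3 and 62.6 (2.35 ± 0.30, adjusted p = 4.54e-06). MUC4 had 39.0, 20.7 and 24.8 in Scramble and 72.6, 86.8 and 76.3 in shOGT (1.49 ± 0.29, adjusted p = 1.88e-04). MUC20 had 175, 128 and 136 against 388, 333 and 389 (1.34 ± 0.15, adjusted p = 9.81e-07). MUC4 and MUC20 are neighbours on chromosome 3, with 5.64 kb between them, and they moved the same way. MUC20 cannot be read alone: 42.8% of its exon bases overlap MUC20-OT1 on the same strand, and 64.3% of its 75-base stretches occur also in MUC20-OT1 or the pseudogene MUC20P1, which was higher too (1.28 ± 0.21). After rescaling the 3 rises remained called, as did the falls of MUC13 (-1.64) and MUC21, while MUC1 no longer passed (-0.91, adjusted p = 0.0551). Beside the mucins, 3 of 11 goblet cell markers are in the table, with a summed level of 1529 to 1602 normalized counts in Scramble and 3237 to 3581 in shOGT. AGR2 (1.13 ± 0.08) and KLF4 (1.39 ± 0.10) rose and FCGBP (-1.53 ± 0.24) fell, and none of the 3 was at 0 in either group. Their part in the mucin changes was not tested.

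Of the GALNT family, which starts mucin-type O-glycans by placing GalNAc on serine or threonine, 4 listed genes rose and 1 fell, of 18 annotated. The median log2 fold change was 3.57, or 3.81 with GALNT15, which had no Scramble reads, set at its lower bound, and between 4.58 and 4.67 with edgeR, DESeq2 or a pseudocount of 0.1. Most of these reads came from GALNT7, which prefers peptides that already carry GalNAc. It had 1034, 1071 and 1152 normalized counts in Scramble and 3045, 3537 and 3616 in shOGT, a 3.13-fold higher mean (1.64 ± 0.09, adjusted p = 9.39e-10). GALNT6, another transferase of the family, had 448, 370 and 378 against 194, 176 and 151 (-1.20 ± 0.14, adjusted p = 1.52e-06). Per 1000 exon bases GALNT7 stood at 158 ± 8.80 in Scramble and 495 ± 45.1 in shOGT, and GALNT6 at 54.3 ± 5.81 and 23.6 ± 2.89, so the distance between them widened. After rescaling GALNT7 remained called (2.36) and the change of GALNT6 did not reach 2-fold (-0.48).

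The other 3 GALNT genes were near the limit of detection in Scramble. GALNT8 had 1, 0 and 0 reads in Scramble and 40, 33 and 26 in shOGT, a ratio of 119 that rests on 1 Scramble read (counting interval 20.9 to 4752). GALNT9 had 3, 1 and 2 reads against 58, 43 and 27, a ratio of 25.7 (11.5 to 71.3). GALNT15 had none against 13, 4 and 18, at least 14.0-fold higher in shOGT. All 3 had reads in every shOGT library, but GALNT8 and GALNT15 could pass the filter on low values only in that way. The 3 changes remained called after rescaling, which raises every shOGT value relative to Scramble by construction. The reads of GALNT8 and GALNT9 may not all be their own. Exons of GALNT8 overlap AC005833.1 and KCNA6 on the same strand over 62.7% of their bases. AC005833.1 was higher too, at 1.77, 0 and 0 against 15.8, 13.9 and 18.2 normalized counts. Of the 75-base stretches of GALNT8, 70.5% occur also in KCNA1, KCNA5 or KCNA6. Exons of AC138466.4 and AC148477.4 lie opposite 6.77% of the exon bases of GALNT9. AC148477.4 was higher as well, at 0, 0 and 0 against 13.7, 11.8 and 3.41 normalized counts.

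Genes of O-mannose, O-glucose and O-fucose chains gave 2 rises and 1 fall among 3 listed genes of 5 annotated. The gene that fell, POMT2, is the only one of the 3 that places a first sugar. B3GLCT, which adds glucose to O-fucose on thrombospondin repeats, had 205, 251 and 222 normalized counts in Scramble and 1246, 1321 and 1303 in shOGT. The shOGT libraries lay within a narrow band, and the mean was 5.72-fold higher (2.51 ± 0.11, adjusted p = 8.97e-11). B4GAT1, which primes the long O-mannose chain of dystroglycan, had 215, 205 and 185 against 912, 793 and 810, a 4.16-fold higher mean (2.05 ± 0.11, adjusted p = 8.49e-10). POMT2, which with POMT1 places the mannose that this chain grows from, had 352, 335 and 334 against 160, 165 and 137 (-1.15 ± 0.13, adjusted p = 1.60e-06). After rescaling both rises remained called and the fall of POMT2 did not (-0.43).

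All 3 listed genes of chain extension and branching rose (median log2 fold change 1.93), of 33 annotated, the lowest share listed of any group but the sialic acid genes. B3GNT5, which adds GlcNAc to lactosylceramide and starts the lacto-series glycolipids, had 686, 906 and 932 normalized counts in Scramble and 2338, 3102 and 3239 in shOGT (1.78 ± 0.14, adjusted p = 1.88e-08). On the opposite strand, exons of MCF2L2 cover 16.2% of its exon bases, and that gene was higher as well (1.77 ± 0.29), though at only 67.9 ± 8.98 normalized counts in shOGT. GCNT2, the enzyme that branches linear chains into the blood group I antigen, had 141, 101 and 112 against 484, 488 and 378 (1.93 ± 0.16, adjusted p = 4.42e-08). Both changes remained called after rescaling. GCNT4, a branching enzyme of O-glycans, had 0, 8 and 0 reads against 7, 12 and 23, a ratio of 6.32 (2.93 to 15.6). Library 2 carried all Scramble reads of GCNT4 and came close to the lowest shOGT library. The log2 fold change of 2.86 ± 0.73 (adjusted p = 0.00176) became 3.87 without library 2, and DESeq2 on the recovered reads gave an adjusted p of 0.125.

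**Figure D2:**
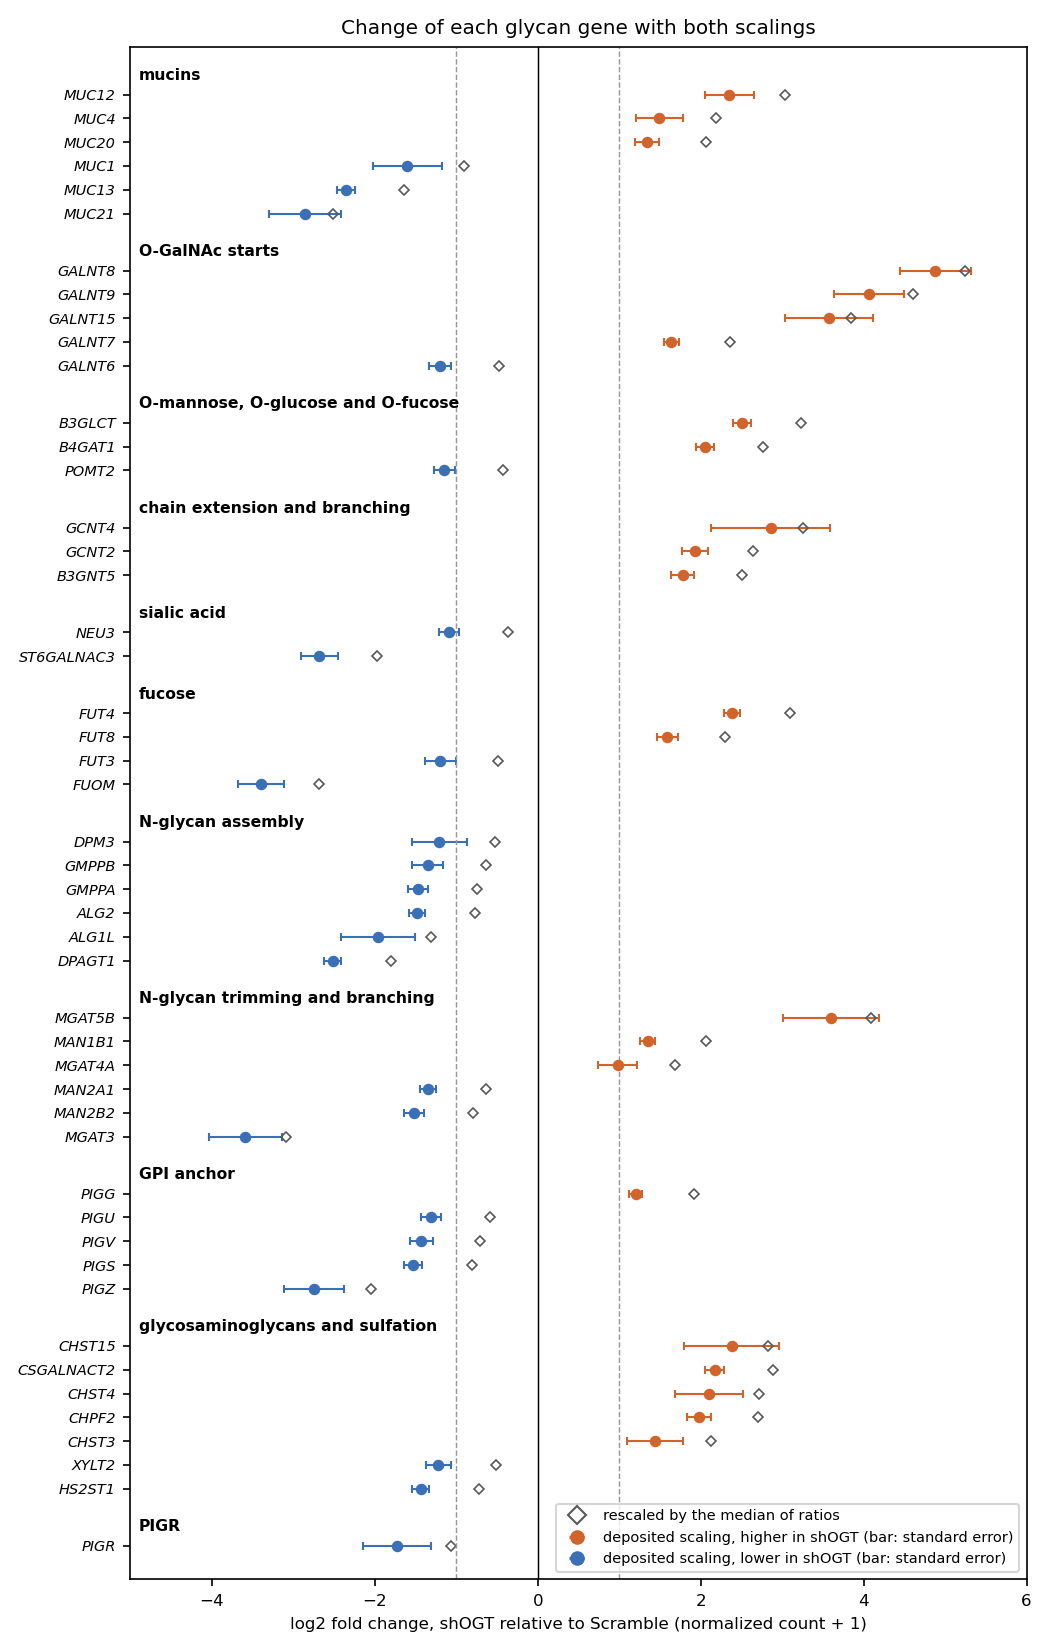
log2 fold change (shOGT relative to Scramble, normalized count + 1) of each glycan gene, with filled points and standard error bars for the deposited scaling, open diamonds after rescaling by the median of ratios, and dashed lines at the 2-fold threshold. Every gene keeps its side of 0; rescaling moves 16 of the 25 lower genes inside the dashed lines.

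Fucose genes went both ways, with 2 rises and 2 falls of 15 annotated. FUT4, a fucosyltransferase that makes Lewis x, had 859, 943 and 966 normalized counts in Scramble and 4247, 5051 and 5167 in shOGT. The mean was 5.23-fold higher (2.38 ± 0.10, adjusted p = 5.83e-11), and FUT4 had the highest level per length of all 48 genes in shOGT, with 796 ± 82.7 normalized counts per 1000 exon bases. PIWIL4 shares 11.3% of the exon bases of FUT4 on the same strand and was higher too (1.33 ± 0.18), at 279 ± 68.9 normalized counts in shOGT. FUT8, which adds the core fucose of N-glycans, had 120, 130 and 133 against 404, 383 and 370 (1.59 ± 0.13, adjusted p = 4.00e-08). After rescaling FUT4 (3.10) and FUT8 (2.30) remained called. FUT3, the Lewis blood group enzyme, moved the other way, from 289, 197 and 204 to 89.5, 88.9 and 118 (-1.20 ± 0.19, adjusted p = 3.44e-05). FUT3 lies in a cluster of like genes, and 13.1% of its 75-base stretches occur also in FUT5, FUT6 or AC024592.3. Its change after rescaling was -0.49, short of 2-fold. FUOM, the fucose mutarotase of the salvage route, had 320, 282 and 249 against 41.0, 16.1 and 26.2. It kept 9.78% of the control mean (-3.40 ± 0.28, adjusted p = 4.26e-08), and its fall remained called after rescaling (-2.69).

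FUT4 and FUOM are the fucose genes that moved furthest in opposite directions, and their upstream windows are printed for that reason. GC content over the 300 bases around the start was 66.3% for FUT4 and 76.3% for FUOM. The medians over protein-coding genes tested were 64.0% in those higher and 65.5% in those lower. Neither window holds CACGTG. The FUT4 window is chr11:94543671-94543920 on the plus strand, and that of FUOM is chr10:133358020-133358269 on the minus strand (GRCh38.p14, RefSeq starts, 5′ to 3′ along the gene).
FUT4: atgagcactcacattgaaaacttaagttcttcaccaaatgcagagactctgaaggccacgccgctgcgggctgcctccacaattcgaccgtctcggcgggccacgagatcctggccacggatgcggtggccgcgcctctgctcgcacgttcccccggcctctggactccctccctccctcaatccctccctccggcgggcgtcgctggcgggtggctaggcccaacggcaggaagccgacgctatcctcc
FUOM: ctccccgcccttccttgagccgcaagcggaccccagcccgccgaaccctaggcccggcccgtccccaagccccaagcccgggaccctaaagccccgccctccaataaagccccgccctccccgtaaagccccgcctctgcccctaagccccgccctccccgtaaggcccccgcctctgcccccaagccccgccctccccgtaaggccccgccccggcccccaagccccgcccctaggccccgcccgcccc

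Of 25 annotated sialic acid genes, 2 are listed, and both fell. ST6GALNAC3, which puts sialic acid on GalNAc, had 487, 617 and 579 normalized counts in Scramble and 54.7, 94.3 and 123 in shOGT. It kept 16.2% of the control mean (-2.68 ± 0.23, adjusted p = 5.61e-08), and the fall remained called after rescaling (-1.97). NEU3, the sialidase that removes sialic acid from gangliosides at the plasma membrane, had 784, 927 and 885 against 470, 375 and 379 (-1.09 ± 0.12, adjusted p = 6.22e-07), and after rescaling the change was -0.37. A sialic acid transferase and a sialic acid hydrolase were thus both lower. ST6GALNAC3 is, with GMPPA, the other glycan gene whose promoter holds CACGTG. Its motif starts at position -119 in the window chr1:76074496-76074745, plus strand (GRCh38.p14, RefSeq start).
ST6GALNAC3: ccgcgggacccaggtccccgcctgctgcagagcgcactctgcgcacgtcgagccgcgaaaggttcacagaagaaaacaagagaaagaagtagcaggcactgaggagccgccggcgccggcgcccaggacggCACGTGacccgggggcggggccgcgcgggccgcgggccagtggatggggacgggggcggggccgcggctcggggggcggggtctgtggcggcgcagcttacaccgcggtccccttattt

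Promoter windows from 250 bases before to 50 after the start were at hand for 38 of the 48 genes, and 2 of them (5.26%) hold CACGTG on either strand. Among all promoters of the same length the share was 7.43% (27305 windows), and among those of protein-coding genes 8.88% (15842 windows). Both glycan genes with the motif fell, and the 17 windows of genes with higher values hold none. In the protein-coding genes tested, 137 of 1309 windows of higher genes and 169 of 1846 windows of lower genes hold it. A match of these letters is a description of the window and says nothing about binding.

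Glycosaminoglycan and sulfation genes mostly rose: 5 higher and 2 lower of 7 listed, with a median log2 fold change of 1.98, of 43 annotated. CSGALNACT2, which starts the chondroitin chain, had 572, 708 and 619 normalized counts in Scramble and 2429, 2898 and 3289 in shOGT (2.17 ± 0.12, adjusted p = 6.45e-10). CHPF2, a chondroitin polymerizing factor, had 568, 438 and 447 against 2508, 1769 and 1560, a 4.02-fold higher mean (1.98 ± 0.15, adjusted p = 2.11e-08). Both are genes of chondroitin synthesis. XYLT2, which adds the xylose from which chondroitin and heparan sulfate alike grow, had 655, 560 and 437 against 226, 259 and 214 (-1.22 ± 0.15, adjusted p = 2.25e-06). HS2ST1, a sulfotransferase of heparan sulfate, had 4373, 4545 and 4627 against 1408, 1798 and 1831 (-1.44 ± 0.10, adjusted p = 8.95e-09). HS2ST1 had the highest level per length of the 48 genes in Scramble, 608 ± 17.5 normalized counts per 1000 exon bases, and fell to 226 ± 31.7 in shOGT, where several of the genes stood above it. AC093155.3 overlaps 9.69% of its exon bases on the same strand. After rescaling neither XYLT2 (-0.51) nor HS2ST1 (-0.72) reached 2-fold, while the 5 rises remained called.

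The 3 listed CHST sulfotransferases were low in both groups of libraries. CHST4, which sulfates GlcNAc on ligands of L-selectin, had 5.32, 2.70 and 4.60 normalized counts in Scramble and 25.3, 25.7 and 13.7 in shOGT, a ratio of 5.16 by reads (2.85 to 9.99). CHST3, a sulfotransferase of chondroitin, went from 16.2 ± 4.41 to 45.8 ± 12.3 (1.44 ± 0.34, adjusted p = 8.91e-04). CHST15, which further sulfates chondroitin, had 4, 0 and 1 reads against 10, 5 and 14, a ratio of 6.98 (2.67 to 23.1). All 3 were higher in each shOGT library than in any Scramble library, but the groups did not overlap for 99.5% of all genes tested. At these levels a few reads set the size of the change.

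GPI anchors tether proteins to the cell surface by a glycolipid. Of 5 listed genes of this role 1 rose and 4 fell (median log2 fold change -1.43, of 24 annotated). PIGG, which adds ethanolamine phosphate to a mannose of the anchor, had 1150, 1139 and 1172 normalized counts in Scramble and 2795, 2644 and 2545 in shOGT (1.20 ± 0.08, adjusted p = 6.24e-09). PIGS, a subunit of the transamidase that joins the anchor to the protein, had 1048, 1016 and 899 against 375, 343 and 307 (-1.53 ± 0.11). PIGU, another subunit of that enzyme, went from 735 ± 12.2 to 299 ± 47.3 (-1.31 ± 0.12). The transamidase subunits thus stood at 34.6% and 40.7% of their control means. Of the mannosyltransferases, PIGV had 285, 296 and 325 against 107, 107 and 121 (-1.43 ± 0.14), and PIGZ had 153, 59.5 and 103 against 21.1, 10.7 and 11.4 (-2.75 ± 0.37). PIGZ varied most among the Scramble libraries. The lowest of them still exceeded the highest shOGT library, but the groups did not overlap for 99.5% of all genes tested. The adjusted p of the 4 falls ran from 1.08e-08 to 7.46e-06. After rescaling PIGG (1.92) and PIGZ (-2.05) remained called, and PIGS (-0.81), PIGU (-0.59) and PIGV (-0.71) did not.

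PIGR, which carries IgA across epithelia into the gut lumen, had 25.7, 28.8 and 17.5 normalized counts in Scramble and 5.26, 10.7 and 4.55 in shOGT. It fell to 28.5% of the control mean (-1.73 ± 0.42, adjusted p = 0.00118) and remained called after rescaling (-1.07).

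**Figure D3:**
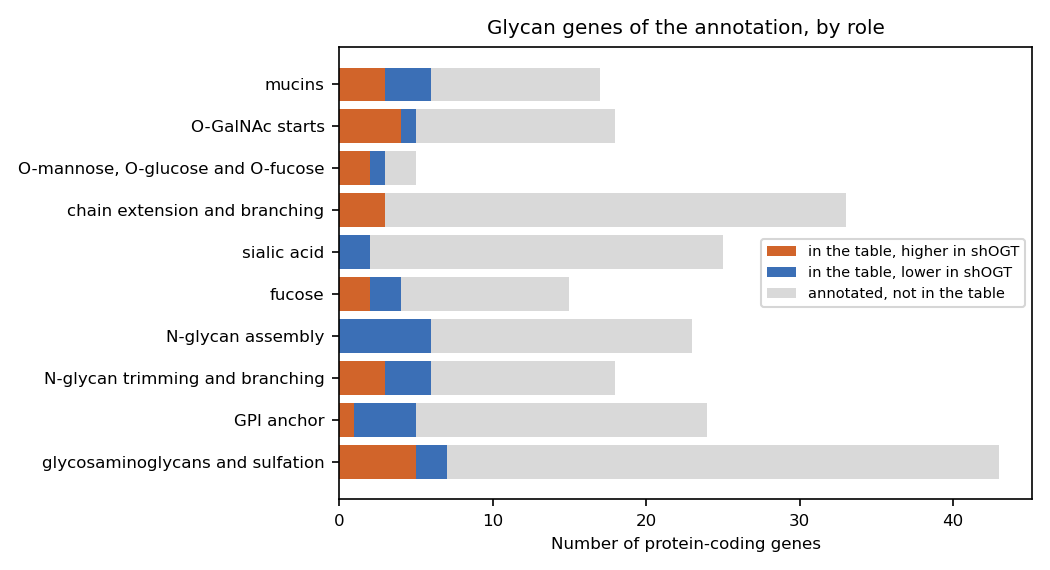
Number of protein-coding genes of the annotation with each role (bars, one per role), divided into genes of the table higher in shOGT (orange), genes of the table lower in shOGT (blue) and genes not in the table (grey). N-glycan assembly has 6 lower and no higher genes, chain extension 3 higher and no lower genes, and most genes of every role except O-mannose, O-glucose and O-fucose are not in the table.

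In the annotation, 222 protein-coding genes have a symbol of the kinds described, and 48 of them (21.6%) are in the table, beside 4128 of all 19922 protein-coding genes on chromosomes (20.7%), with 1 further gene of the table on an unplaced contig. By this count glycan genes were listed about as often as other genes. The share was highest for O-mannose, O-glucose and O-fucose genes (60.0%), mucins (35.3%) and N-glycan trimming (33.3%), and lowest for sialic acid (8.00%) and chain extension (9.09%). A gene outside the table may be unexpressed, unchanged or changed by less than the authors' thresholds, and these cases cannot be told apart here.

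Genes that supply or read glycans without belonging to the families above were taken from a list of 129. Of these, 30 are in the table, and 7 were called higher and 23 lower, where the calls over all genes tested were 52.2% higher and 47.2% lower. Among the protein-coding genes tested, 57.4% had lower values. After rescaling 9 remained called lower, where the share of all genes was 19.2%, and 934 of the 4127 protein-coding genes tested were called lower. With 1 library left out the number called lower was smallest without library 6 (18) or library 5 (19). Genes of sugar nucleotide supply gave 2 rises and 6 falls. GFPT2, a form of the enzyme that opens the hexosamine pathway to UDP-GlcNAc, had 7.98, 10.8 and 6.44 normalized counts in Scramble and 75.8, 62.1 and 68.3 in shOGT (2.91 ± 0.33). PMM1, a phosphomannomutase, had 333, 296 and 272 against 61.0, 52.5 and 51.2 (-2.43 ± 0.17). MPI, which makes mannose phosphate from fructose phosphate, fell by 1.56 ± 0.10 on the log2 scale, from 910 ± 25.2 to 308 ± 15.3. MPI, PMM1, GMPPA, GMPPB and DPM3, which act between hexose phosphate and dolichol-phosphate mannose, were thus each lower. PMM2, DPM1 and DPM2, which belong to the same route, are not in the table, so the route as a whole cannot be read. After rescaling PMM1 remained called (-1.72), while MPI (-0.85), GALK1 (-0.30), FUK (-0.31) and UGDH (-0.63) did not. Nor did GMPPA (-0.75), GMPPB (-0.64) and DPM3 (-0.52).

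The oligosaccharyltransferase, which takes the finished N-glycan precursor from dolichol to protein, had 2 of 12 genes listed, both lower: the catalytic subunit STT3A (5842 ± 153 to 2808 ± 165, -1.06 ± 0.08) and TMEM258 (425 ± 32.1 to 126 ± 9.00, -1.75 ± 0.13). After rescaling TMEM258 remained called (-1.04) and STT3A did not (-0.34). In glycoprotein folding and disposal, glucosidase GANAB (-1.01 ± 0.09) and ENGASE, which cuts N-glycans in the cytosol (-1.68 ± 0.22), were the 2 of 13 listed, both lower, and neither was called after rescaling (-0.29 and -0.96). Of 22 genes of proteoglycan cores and of enzymes that act on their chains, 3 are listed, all of them cores and all lower. The largest falls were those of GPC2 (88.3 ± 16.2 to 6.11 ± 6.33, -4.29 ± 0.69) and SDC3 (523 ± 76.5 to 114 ± 14.7, -2.18 ± 0.15). GPC2 had 12.6, 0 and 5.69 normalized counts in shOGT, and its log2 fold change was -3.21 without library 5 and -5.09 without library 4. After rescaling GPC2 and SDC3 remained called, and GPC1 (-0.86) did not. Lectins, which bind glycans, gave 1 rise and 6 falls of 11 on the list. LGALS3, a galectin that binds galactose-ended chains, rose (1.20 ± 0.12), while LMAN2L, a lectin of the secretory route (-2.25 ± 0.15), and LGALS7 (-2.99 ± 0.63, but -2.03 without library 5) fell. After rescaling LGALS1 (-0.33), LGALS9 (-0.72) and LMAN1 (-0.28) were no longer called. The lysosomal genes mostly went the other way, with 4 rises among the 5 listed of 18. IDS, which removes sulfate from glycosaminoglycans, had 2507, 2843 and 2943 normalized counts in Scramble and 10019, 10508 and 10859 in shOGT (1.92 ± 0.09). None of the 14 sugar nucleotide transporters is in the table, and 3 of 15 genes of O-glycan cores, O-fucose and dystroglycan are, all lower: RFNG (-1.07 ± 0.14), LARGE2 (-1.31 ± 0.34) and DAG1 (-1.12 ± 0.10). None of these 3 was called after rescaling (-0.35, -0.62 and -0.40).

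Transcript composition differed by direction in the glycan genes as in the rest of the table. The median GC content of the transcript with the longest coding sequence was 50.1% in the 23 glycan genes with higher values and 55.2% in the 25 with lower values. Over all protein-coding genes tested it was 46.0% in those higher and 54.5% in those lower. Median exon lengths were 6700 and 5280 bases for the higher and lower glycan genes, beside 4976 and 4519 bases for protein-coding genes. Single genes of either direction lay at both ends of the range: GALNT9 (58.6%), CHPF2 (61.4%) and MGAT5B (64.7%) rose, and MAN2A1 (34.8%), ST6GALNAC3 (36.9%) and HS2ST1 (37.4%) fell. How far composition bears on the measured changes was not tested.

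**Figure D4:**
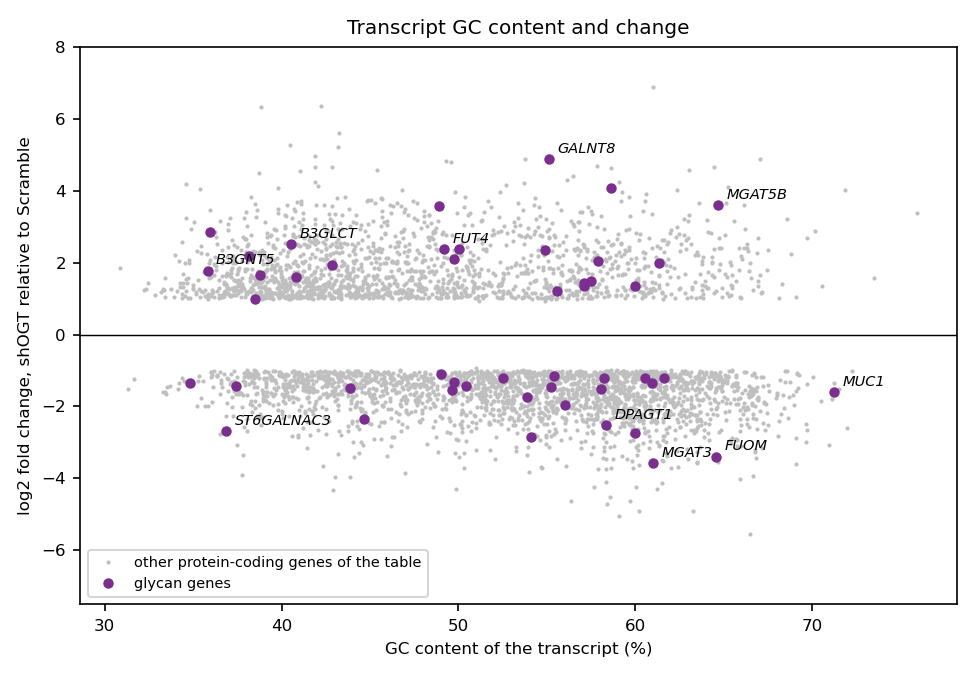
GC content of the transcript with the longest coding sequence (percent, horizontal axis) against the log2 fold change of shOGT relative to Scramble (vertical axis) for all protein-coding genes tested (grey points) and the 48 glycan genes (purple, 10 of them named). The empty band around 0 is the range the authors left out of the table; glycan genes lie on both sides of 0 across the range of GC content.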

How the data were processed

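RNA from 6 HT-29 libraries, 3 Scramble and 3 shOGT, was sequenced, and each column was matched to its sample by the number in its title. The authors deposited normalized counts per gene (unit: signal, reads divided by a size factor), and beside them their own group means, log2 fold changes and p-values, from which only the limits of the table were read, and whose values are not reported. The submitters' processing notes name cutadapt 1.9, HISAT2 2.0.4, UMI-tools, StringTie 1.3.4d, DESeq2, edgeR and the mouse build mm8. The identifiers, positions and lengths of all 5681 genes match GENCODE 29 (human, GRCh38), so human annotation was used. The labels describe poly(A) selection with dUTP strand marking and molecular identifiers, the paper a different kit, and use of strand in counting is not given in the sources used here. Coordinates of start sites, promoters and their sequences are from RefSeq (GRCh38.p14).

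Dividing by the smallest step of each library gave whole reads for 100% of the values, to within 0.02. The plan foresaw raw counts or normalized values, and the branch for normalized values was followed: limma 3.58.1 (trend, R 4.3.3) on log2(normalized count + 1), group as the only term, for genes at 1 or more in at least 3 libraries, with Benjamini-Hochberg adjustment over all genes tested. Alternatives were rescaling by the median of ratios, edgeR 4.0.16 and DESeq2 1.42.0 on recovered reads, a pseudocount of 0.1, no filter, a mean of at least 5, and leaving out each library in turn with the same genes. Scripts were tested on simulated data. With no reads in a group, a fold is a bound against 3 reads over the group, and ratios of few reads have exact 95% intervals for counting error only. Overlap of exons and shared 75-base stretches were taken from the annotation. Values in every library are given for up to 3 genes with the largest changes in each direction of each role (mean of at least 10), for the most abundant gene of each role, and for PIGR and FUOM. Low genes are given by reads, and the others by their changes. The genes, roles and lists were chosen with earlier results of these data known. Protein sequences were not used here. The values of 1 gene of the wider glycan list are not reported here.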

Additional observations from a re-analysis of the deposited data

How the results depend on the processing

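Of the 48 genes, 29 stayed past both thresholds under every alternative, and none changed sign. Rescaling by the median of ratios had the largest effect: the number called lower went from 25 to 9, and the median log2 fold changes of the mucins (-0.13 to 0.57) and of N-glycan trimming and branching (-0.19 to 0.52) reversed. By construction it raises every shOGT value relative to Scramble. The mucin median, the midpoint of an even split, also reversed with a minimum mean of 5 (1.34, since MUC21 is dropped) and without library 1 (0.09) or library 4 (0.05), and ran from -0.32 to 0.09 with a library left out. Of 48 genes, edgeR called 48, DESeq2 47 (not GCNT4), a pseudocount of 0.1 and no filter 47 each. With a library left out the number called ran from 46 to 48, called higher from 22 to 23 and called lower from 24 to 25, and the change of OGT ran from -4.42 to -4.24. DPM3 was lost without library 1 or 5, and MGAT4A was called by edgeR (1.01), DESeq2 (1.01) and without library 3, 4 or 6. No paired analysis was possible because the groups share no library numbers. The libraries' depth limits genes such as MUC21, GALNT8, GALNT15 and MGAT3, whose low group had at most 2 reads in all. Because the table was restricted by the authors, genes that changed less cannot be described, and the shares given here hold among listed genes.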
